A study of Homo sapiens with 96 samples.

Results

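Cells carry receptors on their surface whose engagement can start apoptosis, and this text describes 10 genes of that extrinsic pathway in acute myeloid leukaemia (AML) cell lines. The genes were the ligand TNFSF10 (TRAIL), the death receptors TNFRSF10A (DR4), TNFRSF10B (DR5) and FAS, the initiator caspases CASP8 and CASP10, the caspase-8 inhibitor CFLAR (cFLIP), and the inhibitor of apoptosis (IAP) genes BIRC2 (cIAP1), BIRC3 (cIAP2) and XIAP. They were taken by symbol from a table of 60552 gene rows, and each of the 10 symbols matched 1 row. The lines were HL60, Kasumi1, MOLM13, MV411, OCIAML3 and THP1. Each line received 0.1% DMSO as vehicle, 1 µM of the LSD1 inhibitor GSK2879552 (labelled 552A), all-trans retinoic acid (labelled ATRA) at 100 nM, or the pair of drugs (labelled Combo), for 2 or 4 days. The label 552A was taken to mean GSK2879552, since the other arms of the protocol were accounted for by the remaining labels. This gave 48 groups of 2 replicates, or 96 libraries. Each line is a single established culture. Nothing in the labels says that replicates came from separate cultures. P-values within a line, and those of F tests between lines, are set against how far such libraries differ, and that spread may be technical.

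When TRAIL or FAS ligand binds a death receptor, the receptor's death domain recruits the adaptor FADD and pro-caspase-8 or pro-caspase-10, and caspase molecules brought together there activate each other. CFLAR resembles caspase-8 but lacks protease activity in its active site, and it competes for a place in that complex. The cIAP proteins are ubiquitin ligases that act on RIPK1 and in NF-kappaB signalling, whereas XIAP binds and inhibits the executioner caspases and caspase-9. BIRC3 is a classical NF-kappaB target gene, and TNFSF10 is known as an interferon-responsive gene that retinoids induce in promyelocytic leukaemia cells. All of these are statements about transcripts here: surface receptor, protein and cell death were not measured.

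Several members are neighbours on GRCh38 in GENCODE 29. CFLAR (chromosome 2, 201116104 to 201176687), CASP10 (201182881 to 201229406) and CASP8 (201233443 to 201287711) lie in a row on the plus strand, and BIRC3 (chromosome 11, 102317450 to 102339403) precedes BIRC2 (102347211 to 102378670). TNFSF10 is on chromosome 3 (172505508 to 172523507, minus strand), FAS on chromosome 10 (88990582 to 89015785) and XIAP on chromosome X (123859724 to 123913979). On the opposite strand FAS overlaps ACTA2, TNFRSF10B overlaps RHOBTB2, CFLAR, TNFRSF10A and XIAP overlap antisense genes, TNFSF10 overlaps AC007919.1, and CASP10 overlaps pseudogenes such as MTND4P23. On their own strand CFLAR overlaps AC007283.1 and RNU7-45P, FAS overlaps RF02116, and XIAP overlaps RNU6-122P. The strand setting of the counting is not given in the sources used here. Reads of partners on the opposite strand may therefore be shared, and those of partners on the same strand may be shared under any setting.

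The promoter sequences of BIRC3 and TNFSF10 are shown because these genes had the largest fold changes among the members. RefSeq windows (GRCh38.p14) of 250 bases before a transcript start are counted here for 7 of the 10 members, 17 windows in all. Whether the other members have such windows is not described here. The stretches printed are the bases outside the GENCODE 29 gene. In the BIRC3 stretch (chr11:102317234-102317449, plus strand) the capitals mark both matches to the 10-base NF-kappaB consensus, read on the minus strand, at -199 to -190 and -135 to -126 from the RefSeq start. In the TNFSF10 stretch (chr3:172523508-172523680, minus strand of the chromosome, so printed in the direction of transcription) the capitals mark the match to the interferon regulatory factor element GAAANNGAAA, found on the reverse strand at -187 to -178.
BIRC3: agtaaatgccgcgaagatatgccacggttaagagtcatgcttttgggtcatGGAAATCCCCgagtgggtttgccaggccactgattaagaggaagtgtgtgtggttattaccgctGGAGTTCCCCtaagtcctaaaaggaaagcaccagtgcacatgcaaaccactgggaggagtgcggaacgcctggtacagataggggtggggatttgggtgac
TNFSF10: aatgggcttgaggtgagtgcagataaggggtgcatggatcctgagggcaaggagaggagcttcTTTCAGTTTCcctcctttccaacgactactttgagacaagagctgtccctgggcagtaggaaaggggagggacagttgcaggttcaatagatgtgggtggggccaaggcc
The NF-kappaB consensus was found in windows of 3 members (BIRC3, CFLAR and FAS) and in 5.21% of the 35116 RefSeq windows of this length. GAAANNGAAA was found in 1 member and in 3.02% of windows. The core motif of retinoic acid receptors, AGGTCA, was found in 1 member (XIAP) and in 12.1% of windows. Several members have more than 1 window, so these counts of members cannot be set directly against the shares of single windows. Both strands were searched, and a match describes letters, not binding.

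Library totals ran from 12822146 to 40954794 counts, with a median of 22877617, and mitochondrial genes took 0.307 to 7.59% of them. In 8 libraries the slope of log2 expression on gene GC content lay below -0.5, a limit set after the slopes were seen (the lowest were -1.059 and -0.914), and 8 of the 10 members have a GC content below the median of 48.9% over 12638 expressed protein-coding genes. The slope was positive in nearly all DMSO libraries. The exceptions were MOLM13 day 2 replicate 2 (-0.049) and MV411 day 4 replicate 2 (-0.608). Treated libraries had slopes of both signs. For members of low GC content, a rise against DMSO and the GC trend are thus partly confounded. Values corrected for GC content and length are therefore given beside many of the results. Of the defining myeloid markers, CD33, SPI1, PTPRC and CEBPA were present in all lines, whereas the median of MPO was 0.865 counts-per-million (CPM) in OCIAML3, 2.96 in MV411 and 5.45 in THP1. Markers of other cell types that reached appreciable levels were CD79A in HL60 (up to 104 CPM), EPCAM in Kasumi1 (up to 146) and CD3D in MOLM13 (up to 28.8). The haemoglobin genes HBA1 and HBA2 stayed at or below 0.116 CPM. Their part in the results was not tested. These are bulk samples, in which fewer cells of a type and less RNA per cell cannot be told apart.

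Across lines at day 4, ATRA and Combo each raised CFLAR and the 3 IAP genes, which restrain this pathway, and CASP8. No death receptor passed the test there. Treatments were compared with edgeR's quasi-likelihood test, with p-values adjusted over all genes tested (Benjamini-Hochberg), and calls are those with an adjusted p under 0.05. Across the 6 lines at day 4, 552A changed 0 of 10 members, against 0.393% of 24199 genes tested. The unadjusted p was under 0.05 for 1 member, and DESeq2 called 1, in both cases TNFSF10. ATRA raised 5 members (CASP8, CFLAR, BIRC2, BIRC3 and XIAP) against 7.15% of genes called. Combo raised 7 members, those 5 with TNFSF10 and CASP10, against 23.3%. Of the 5 ATRA calls 0 were kept when each line was left out in turn, whereas 5 of the 7 Combo calls were. Of all genes, 405 to 2295 were called with ATRA when 1 line was left out, against 1731 with all 6. With Combo 3431 to 4756 were called, against 5643. After GC correction CASP8 and BIRC3 lost their ATRA calls, and CASP10 lost its Combo call. No member fell across lines at day 4 in these comparisons. The median log2 fold change of the 10 members was 0.16 with 552A, 0.59 with ATRA and 0.73 with Combo, where the median of all genes was 0.01, -0.01 and 0.04. These comparisons share their DMSO libraries and are not independent of each other.

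**Figure D1:**
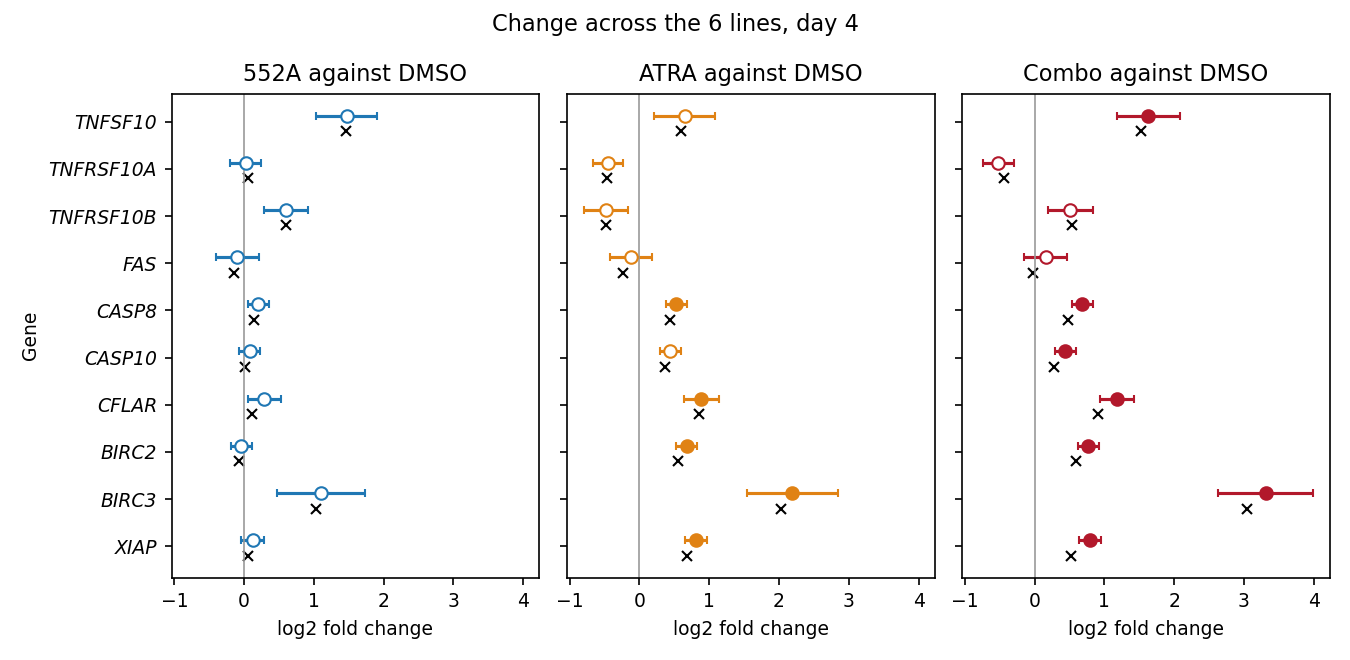
Log2 fold change against DMSO at day 4 across the 6 lines (x axis) for the 10 genes (y axis), 1 panel per treatment. Circles are the estimates with bars of 1 standard error, filled where the adjusted p was under 0.05, and crosses are the values corrected for GC content and length. BIRC3 with Combo is farthest to the right at 3.31, and all filled circles lie to the right of 0.

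Within single lines the calls were counted over 60 pairs of member and line. At day 4, 552A gave 6 calls of 60, all higher, where 3.71% of all gene and line pairs were called. ATRA gave 27 calls, 22 higher and 5 lower, against 15.7%, and Combo gave 35, 30 higher and 5 lower, against 22%. HL60 had 7 members raised and 0 lowered by ATRA. Kasumi1 had 0 of 10 called with ATRA by edgeR and by DESeq2, with 1 unadjusted p under 0.05, and had 4 raised with Combo. MOLM13 had as many members lowered as raised by Combo, 3 each. The share of all genes called in each single line is not given here. These counts per line are therefore not read as traits of the members.

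**Figure D2:**
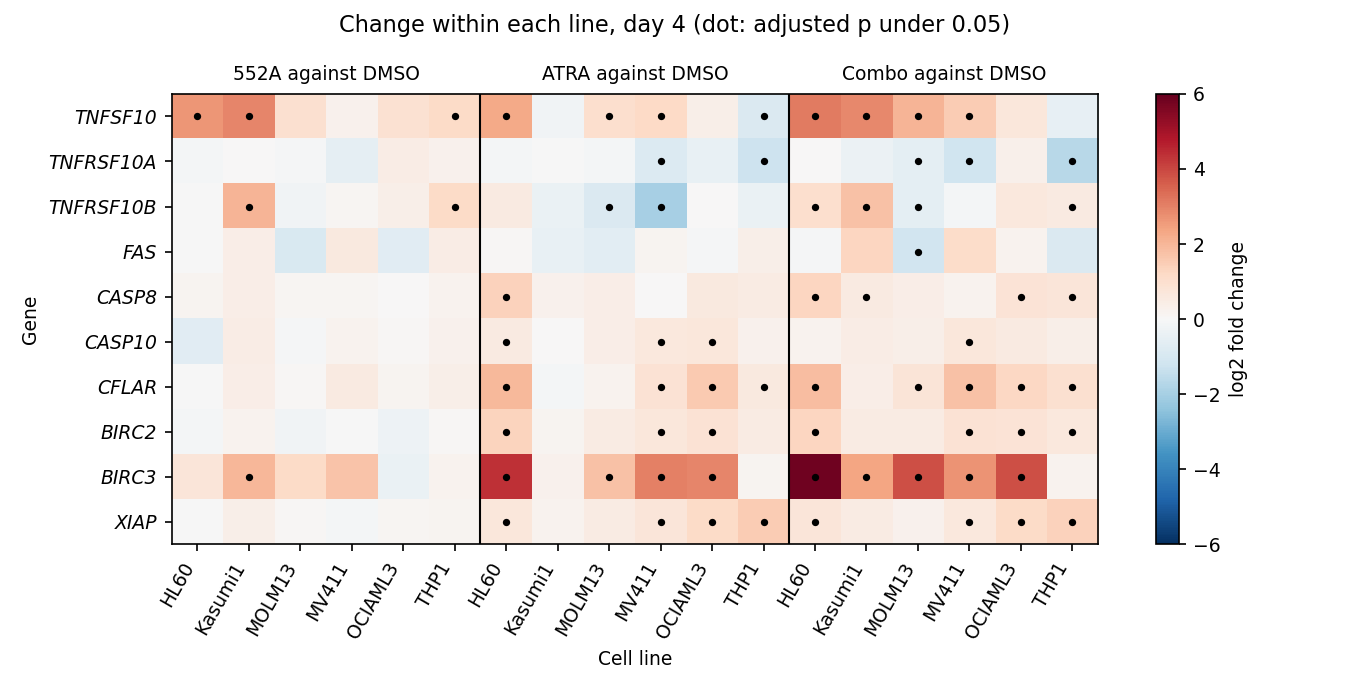
Log2 fold change against DMSO at day 4 in each line (columns, grouped by treatment) for each gene (rows) as a colour, blue for lower and red for higher. Black dots mark an adjusted p under 0.05; the BIRC3 row carries a dot in 5 of 6 lines with Combo, and the ATRA columns of Kasumi1 carry no dot.

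In DMSO the members differed widely in level. Per length, as RPKM (CPM divided by the merged exon length in kilobases), the median of the 12 DMSO libraries of day 4 was 19 for TNFRSF10B, 12.2 for BIRC2, 9.18 for TNFRSF10A, 8.25 for CASP8 and 6.66 for XIAP. CFLAR followed at 5.23, a value lowered by a merged exon length of 22529 bases, then CASP10 at 3.01 and TNFSF10 at 2.1. FAS (0.445) and BIRC3 (0.131) were the lowest. Levels between genes are compared on this scale; all values below are CPM, which compare 1 gene between samples.

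Each of the 10 members differed between the 6 lines in DMSO at day 4 by an F test in edgeR, where 87.9% of genes did. The receptors varied most, with the highest line 28.1-fold above the lowest for FAS, 21.3-fold for TNFRSF10B and 7.73-fold for TNFRSF10A, against 1.52-fold for BIRC2. The mean of TNFRSF10B was 262 CPM in MOLM13, 176 in MV411, 134 in OCIAML3, 56.8 in HL60, 21.9 in THP1 and 12.3 in Kasumi1, and in that order MV411 and OCIAML3 were the one pair of neighbours that did not differ (adjusted p = 0.0512). TNFRSF10A stood in another order, with HL60 at 81.1, MOLM13 at 42.4, MV411 at 34.2, THP1 at 19.5, Kasumi1 at 16 and OCIAML3 at 10.5. There MOLM13 and MV411, and THP1 and Kasumi1, did not differ beyond their spread. OCIAML3, the lowest line for DR4, was thus among the higher lines for DR5. FAS formed 3 levels: 12.2 and 12.1 CPM in OCIAML3 and MOLM13, 3.47 in HL60, and 0.434 to 0.703 in MV411, THP1 and Kasumi1. The last 3 lines did not differ between neighbours, and their DMSO libraries of day 4 held 5 to 21 FAS reads, so that changes of FAS in them are poorly determined. TNFSF10 was at 16.3 in OCIAML3, 15.1 in THP1, 8.75 in MV411, 6.95 in MOLM13, 2.35 in HL60 and 2.21 in Kasumi1. The steps from THP1 to MV411 and from MOLM13 to HL60 passed the test. For CASP8 (41.5 in MV411 to 85.3 in Kasumi1), CASP10 (18.8 to 30.2) and BIRC2 (41.7 to 63.3) no pair of neighbours differed. CFLAR was highest in MV411 (178) and lowest in HL60 (68.7), and both ends differed from their neighbours. XIAP differed between neighbours only at the top, from MV411 (87) to OCIAML3 (62.8). BIRC3 was at 2.66 in HL60 and at 0.431 to 1.28 in the other lines.

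TNFSF10, the TRAIL ligand, had the largest fold change of the members with 552A across lines. At day 4 in HL60 its DMSO replicates held 2.82 and 1.88 CPM, 552A 16.7 and 13.1, ATRA 10.9 and 13.1, and Combo 22.3 and 21. In Kasumi1 the values were 2.09 and 2.33 with DMSO, 15.6 and 18.4 with 552A, 1.63 and 2.07 with ATRA, and 18.6 and 14.8 with Combo. Both lines were thus low in DMSO and high with 552A and Combo, but ATRA alone lay above DMSO in HL60 and just below it in Kasumi1. In MOLM13 they were 5.51 and 8.39 (DMSO), 13.5 and 14.1 (552A), 14.1 and 14.6 (ATRA) and 29.3 and 29.1 (Combo). In MV411 they were 6.17 and 11.3, 12.2 and 8.82, 17.5 and 21.1, and 24.9 and 23.5 in the same order. MOLM13 thus had similar levels with either drug and a higher one with both, and in MV411 the 552A libraries overlapped those of DMSO. OCIAML3 had 15.2 and 17.5 with DMSO, 27.5 and 32.1 with 552A, 18.6 and 20.9 with ATRA, and 24.8 and 27.9 with Combo. THP1 had 13.9 and 16.2 with DMSO, 30.9 and 38.2 with 552A, 8.11 and 9.35 with ATRA, and 9.23 and 13.5 with Combo. In THP1 552A lay above DMSO while ATRA and Combo lay below it.

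Across lines at day 4 the log2 fold change of TNFSF10 was 1.47 ± 0.44 (SE) with 552A, higher in 6 of 6 lines, with an adjusted p of 0.211. With Combo it was 1.63 ± 0.45 (adjusted p = 0.0148, higher in 5 of 6 lines) and with ATRA 0.65 ± 0.44 (adjusted p = 0.378). Corrected for GC content the Combo value was 1.52 (adjusted p = 0.0257). The call was lost without HL60 (log2 fold change 1.37, adjusted p = 0.0563) and without MOLM13. Within lines, 552A raised TNFSF10 in Kasumi1 (log2 fold change 2.92 ± 0.29, adjusted p = 7.47e-05), HL60 (2.64 ± 0.35, adjusted p = 0.00239) and THP1 (1.13 ± 0.22, adjusted p = 0.0079). The HL60 call was lost without DMSO replicate 2 (adjusted p = 0.0624), and the THP1 call without 552A replicate 2 or either DMSO replicate (adjusted p up to 0.11). Combo raised it in HL60, Kasumi1, MOLM13 and MV411, by 3.12, 2.86, 2.05 and 1.51, and these calls were kept when any 1 library was left out. ATRA alone raised it in HL60 (2.25, adjusted p = 0.000456), MV411 (1.19, adjusted p = 0.0141) and MOLM13 (0.99, adjusted p = 0.0146). The HL60 call was kept without any 1 library, and the MV411 call was lost without ATRA replicate 2 (adjusted p = 0.0895). The MOLM13 call was lost without either ATRA replicate or DMSO replicate 1 (adjusted p up to 0.197) and after GC correction (0.68, adjusted p = 0.0738). In THP1 ATRA lowered it by a log2 fold change of -0.88 ± 0.22 (adjusted p = 0.019), a call lost without any 1 of the 4 libraries (adjusted p up to 0.169). Combo in THP1 stood below 552A alone, at -1.61 ± 0.22 (adjusted p = 0.000205), whereas in MOLM13 and MV411 it stood above 552A by 1.11 and 1.24 (adjusted p = 0.00486 and 0.0179). The MV411 call was lost without 552A replicate 2 (adjusted p = 0.153), and the other 2 were kept without any 1 library. Combo exceeded ATRA alone in Kasumi1 by 3.09 (adjusted p = 6.09e-05) and in MOLM13 by 1.06 (adjusted p = 0.0118). The Kasumi1 call was kept without any 1 library, whereas that of MOLM13 was lost without any 1 of the 4 libraries (adjusted p up to 0.12).

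**Figure D3:**
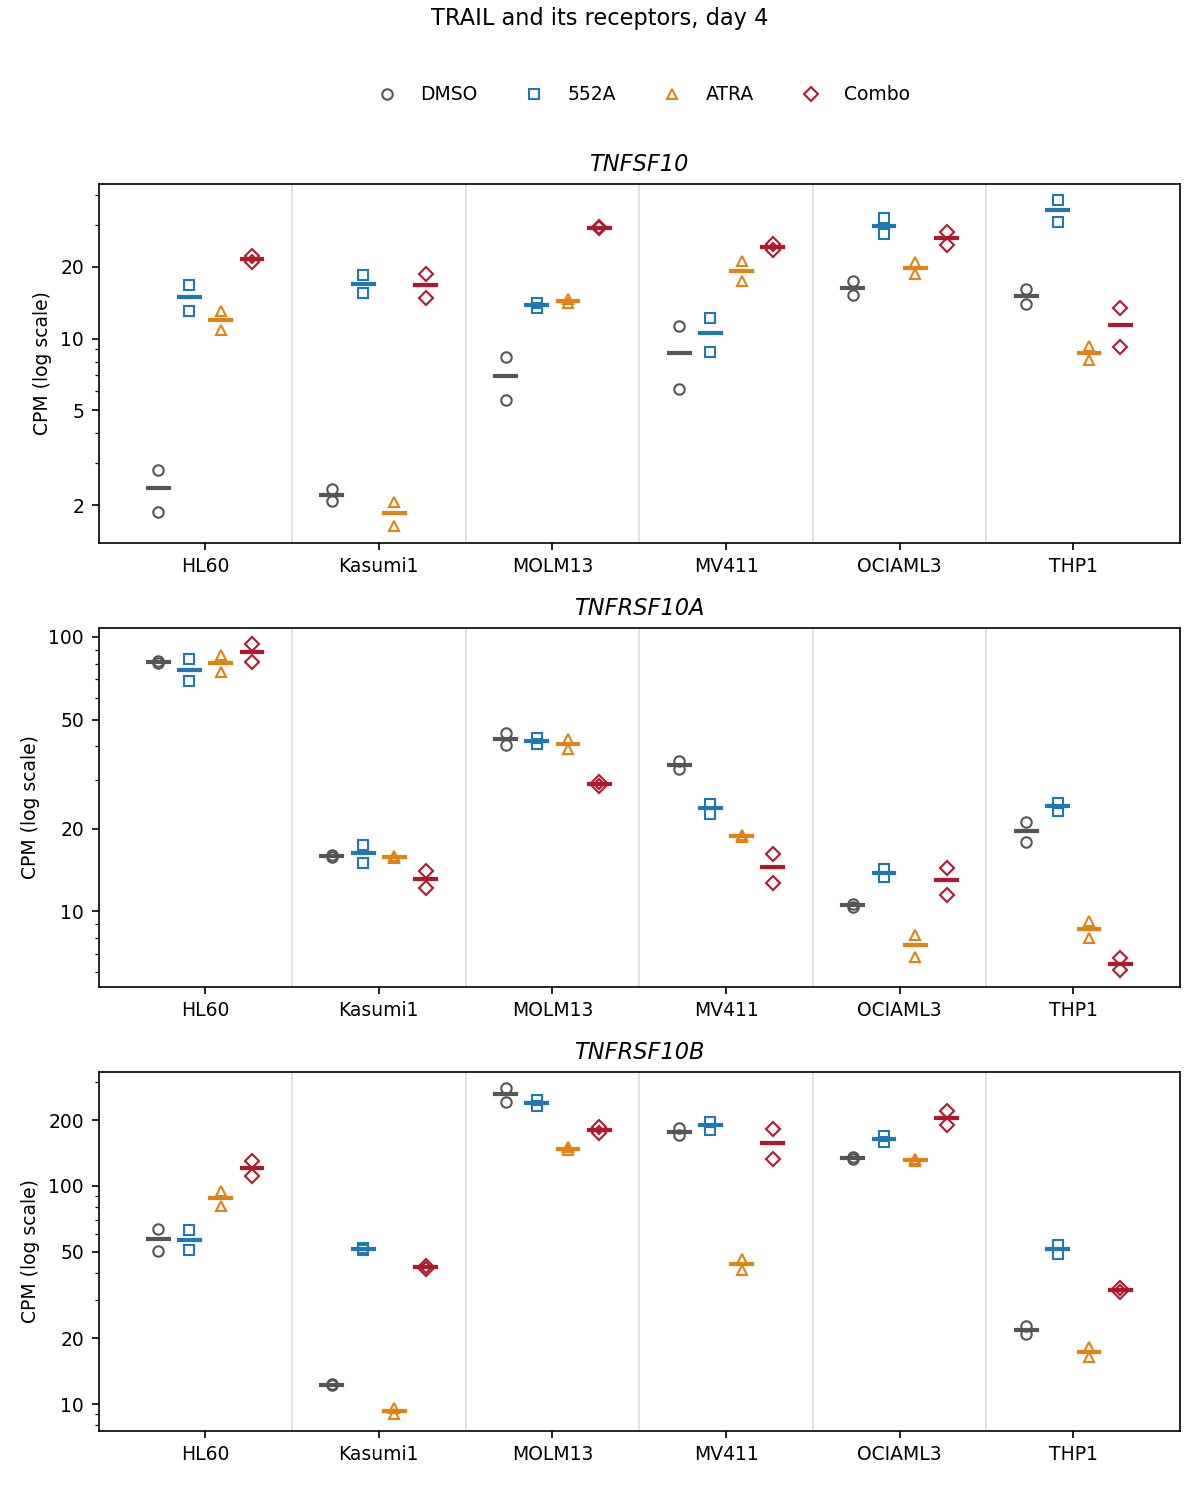
CPM on a log axis at day 4 (y axis) of TRAIL and its receptors DR4 and DR5 in the 6 lines (x axis). Symbols are single libraries by treatment, 2 per group, and bars their means; TNFRSF10B in MV411 falls from 183 and 170 with DMSO to 46.1 and 41.3 with ATRA and stands at 182 and 132 with Combo.

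TNFRSF10B, which encodes the TRAIL receptor DR5, moved in opposite directions in different lines. It lies on the minus strand of chromosome 8 (23020133 to 23069179), as does TNFRSF10A (23190452 to 23225126). In Kasumi1 its DMSO replicates held 12.2 and 12.4 CPM, 552A 52.1 and 50.7, ATRA 9.56 and 8.98, and Combo 42.8 and 41.8. In THP1 the values were 22.8 and 21 with DMSO, 53.5 and 48.7 with 552A, 18.2 and 16.5 with ATRA, and 33.9 and 32.7 with Combo. In both lines the libraries with 552A, alone or in Combo, lay above DMSO and those with ATRA alone below it. In MV411 DMSO held 183 and 170, 552A 197 and 181, ATRA 46.1 and 41.3, and Combo 182 and 132. In MOLM13 the values were 281 and 243, 247 and 232, 150 and 146, and 185 and 174 in the same order. ATRA alone was thus the lowest treatment in these 4 lines. HL60 differed: DMSO held 50.4 and 63.2 CPM, 552A 50.6 and 62.6, ATRA 95.1 and 81.2, and Combo 130 and 111, so that 552A overlapped DMSO and the ATRA and Combo libraries lay above both. OCIAML3 had 133 and 135 with DMSO, 159 and 169 with 552A, 130 and 132 with ATRA, and 219 and 190 with Combo.

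With 552A the log2 fold change of TNFRSF10B was 2.04 ± 0.16 in Kasumi1 (adjusted p = 1.26e-05) and 1.15 ± 0.16 in THP1 (adjusted p = 0.000768), and both calls were kept without any 1 library. ATRA lowered it in MV411 by -1.97 ± 0.19 (adjusted p = 1.46e-05) and in MOLM13 by -0.89 ± 0.16 (adjusted p = 0.00438). The MOLM13 call was lost without ATRA replicate 1 or DMSO replicate 1 (adjusted p up to 0.0713). With Combo the value in MV411 was -0.13 ± 0.19, not called, which was 1.74 ± 0.27 above the sum of the single-agent changes (adjusted p = 0.00444). That call was kept without any 1 of the 8 libraries of day 4 (1.35 to 1.89, adjusted p up to 0.0383), and 1.81 was the value after GC correction. This was the 1 member and line of 60 at day 4 in which Combo departed from the sum of both drugs on the log2 scale by edgeR, where 0.959% of all gene and line pairs did. Combo also exceeded ATRA alone in Kasumi1 (2.13), MV411 (1.84) and THP1 (0.95), and these calls were kept without any 1 library. It exceeded 552A in HL60 by 1.03 but lay below it in THP1, at -0.62. These calls were lost without HL60 552A replicate 1 (adjusted p = 0.0629) and without THP1 552A replicate 1 or Combo replicate 2 (adjusted p up to 0.109). Against DMSO, Combo raised it in Kasumi1 (1.74 ± 0.15), HL60 (1.00 ± 0.22) and THP1 (0.53 ± 0.16) and lowered it in MOLM13 (-0.57 ± 0.16). The Kasumi1 call was kept without any 1 library. The HL60 call was lost without DMSO replicate 1 (adjusted p = 0.0673), the THP1 call without Combo replicate 1 or DMSO replicate 2 (up to 0.0865) and the MOLM13 call without any 1 of the 4 libraries (up to 0.266). Across lines at day 4 TNFRSF10B was not called, at 0.60 ± 0.32 with 552A, -0.48 ± 0.32 with ATRA and 0.51 ± 0.32 with Combo.

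TNFRSF10A, encoding DR4, showed no rise that passed the test in any line at day 4. In THP1 it was at 21.2 and 17.9 CPM with DMSO, 24.9 and 23.3 with 552A, 8.02 and 9.24 with ATRA, and 6.09 and 6.77 with Combo. In MV411 it was at 35.4 and 33, 24.7 and 22.7, 19 and 18.7, and 16.2 and 12.7 in that order. Every ATRA and Combo library of both lines lay below their DMSO libraries. The log2 fold change with Combo was -1.68 ± 0.17 in THP1 (adjusted p = 9.23e-06) and -1.20 ± 0.22 in MV411 (adjusted p = 0.00138), and both calls were kept without any 1 library. ATRA alone gave -1.26 ± 0.16 in THP1 (adjusted p = 0.000231) and -0.81 ± 0.22 in MV411 (adjusted p = 0.0156), the latter lost without either ATRA replicate or DMSO replicate 1 (adjusted p up to 0.121). MOLM13 was also lower with Combo (28.6 and 29.5 against 40.4 and 44.5 CPM, adjusted p = 0.0335), a call lost without any 1 of the 4 libraries (adjusted p up to 0.226). In HL60, Kasumi1 and OCIAML3 no treatment passed the test for it at day 4. Across lines it was at -0.45 ± 0.22 with ATRA (lower in 6 of 6 lines, adjusted p = 0.217) and -0.52 ± 0.22 with Combo (lower in 4 of 6 lines, adjusted p = 0.0975). With Combo, DR4 transcript thus fell in THP1 and MV411, while DR5 transcript rose in THP1 and was not called in MV411. In MOLM13 both were called lower with Combo, at -0.57 for each. The MOLM13 calls and the DR5 rise in THP1 (0.53) were lost when some single libraries were left out.

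FAS, the receptor of FAS ligand, changed in 1 line at day 4. MOLM13 held 13.5 and 10.7 CPM with DMSO and 5.86 and 5.27 with Combo, a log2 fold change of -1.14 ± 0.29 (adjusted p = 0.0186) that lost its call without DMSO replicate 1 or either Combo replicate (adjusted p up to 0.156). With 552A the MOLM13 libraries were at 8.62 and 4.87 and with ATRA at 10.3 and 6.41, and neither passed the test; corrected for GC content, both did (-1.15, adjusted p = 0.00721, and -0.89, adjusted p = 0.0115). GC correction also gave a call in MV411 with Combo, which was higher (1.12, adjusted p = 0.0191, against 1.09 and 0.0945 uncorrected). OCIAML3 had 12.7 and 11.8 with DMSO, 7.86 and 6.97 with 552A, 10.2 and 12.1 with ATRA, and 15.1 and 13.7 with Combo, none of them called against DMSO. In HL60 all 8 libraries of day 4 lay between 2.6 and 4.79 CPM. At day 2 HL60 held 5.71 and 6.41 with DMSO and 3.36 and 2.94 with ATRA, a fall of -0.95 on the log2 scale (adjusted p = 0.046) that lost its call without any 1 of the 4 libraries (adjusted p up to 0.159). Across lines FAS was at -0.10 ± 0.31 with 552A, -0.12 ± 0.30 with ATRA and 0.16 ± 0.31 with Combo, with 3 lines higher and 3 lower in each comparison.

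The initiator caspases rose modestly. CASP8, the apical caspase of this pathway, stood at 67 and 63 CPM with DMSO in HL60, 75.4 and 72.8 with 552A, 150 and 212 with ATRA, and 160 and 182 with Combo. In THP1 it was at 62.7 and 73, 75.8 and 89.3, 90.2 and 114, and 105 and 129. In MV411 the values were 32.5 and 50.4, 49.4 and 41.3, 39.7 and 42.1, and 40.6 and 51.8, so that all treatments overlapped DMSO there. Over the 12 libraries of all lines the median was 59.8 CPM with DMSO, 66.9 with 552A, 89.2 with ATRA and 106 with Combo. Across lines the log2 fold change was 0.53 ± 0.15 with ATRA (adjusted p = 0.0413) and 0.68 ± 0.15 with Combo (adjusted p = 0.00467), higher in 6 of 6 lines in both. The Combo call was kept without any 1 line and after GC correction (0.48, adjusted p = 0.022). The ATRA call was lost after GC correction (0.44, adjusted p = 0.0662) and without HL60, MOLM13, OCIAML3 or THP1, each alone (adjusted p up to 0.128). At day 4 HL60 had the largest change of CASP8 within a line, at 1.37 ± 0.18 with ATRA and 1.31 ± 0.18 with Combo. At day 2 the Combo value in HL60 was 1.79 ± 0.19 (adjusted p = 1.33e-05), and these 3 calls were kept without any 1 library.

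CASP10, the other death-receptor caspase of humans, ranged over the 12 libraries from 16.5 to 31.4 CPM with DMSO (median 22.9), from 11.1 to 43 with 552A (median 25), from 23.3 to 42.3 with ATRA (median 30.1) and from 22.3 to 50.1 with Combo (median 30.4). The ranges overlapped. Across lines it was at 0.44 ± 0.15 with ATRA (adjusted p = 0.0808) and 0.44 ± 0.15 with Combo (adjusted p = 0.0421). The Combo call was lost after GC correction (0.28, adjusted p = 0.204) and when Kasumi1, MOLM13, MV411, OCIAML3 or THP1 was left out alone (adjusted p up to 0.127). In HL60 at day 2 CASP10 held 22.3 and 24.8 CPM with DMSO and 70.2 and 80.3 with ATRA, which was 1.67 ± 0.19 on the log2 scale (adjusted p = 5.3e-05), against 0.56 ± 0.19 at day 4. The day 4 call was lost without either ATRA replicate or DMSO replicate 2 (adjusted p up to 0.209) and after GC correction (0.37). The difference between these days was tested across lines only.

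CFLAR, which blocks caspase-8 at the receptor, rose in 5 of 6 lines with Combo at day 4 by the test within lines. HL60 was at 69 and 68.4 CPM with DMSO, 73.4 and 63.2 with 552A, 257 and 318 with ATRA, and 249 and 277 with Combo. OCIAML3 was at 107 and 121, 125 and 124, 318 and 328, and 275 and 276 in the same order. In both lines ATRA alone lay near or above Combo, and 552A lay near DMSO. MV411 was at 156 and 200 with DMSO, 268 and 244 with 552A, 280 and 341 with ATRA, and 512 and 667 with Combo, and its 4 treatments did not overlap. THP1 was at 96.4 and 112, 134 and 147, 156 and 178, and 187 and 246. MOLM13 was at 127 and 119, 146 and 123, 160 and 139, and 195 and 225. Kasumi1 was at 128 and 117 with DMSO, 171 and 159 with 552A, 121 and 105 with ATRA, and 189 and 145 with Combo, so that in this line the libraries with 552A stood above those with DMSO or ATRA alone.

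The log2 fold change of CFLAR with Combo was 1.85 ± 0.20 in HL60, 1.76 ± 0.18 in MV411, 1.26 ± 0.15 in OCIAML3, 0.98 ± 0.16 in THP1 and 0.75 ± 0.19 in MOLM13. Leaving out any 1 library kept the first 4 of these calls and ended that of MOLM13 (adjusted p up to 0.164). Combo exceeded ATRA alone in MV411 by 0.92 ± 0.18 (adjusted p = 0.00369) and in Kasumi1 by 0.50 ± 0.13 (adjusted p = 0.0369). After GC correction neither was called, at 0.17 in MV411 and 0.16 in Kasumi1, lines in which Combo replicate 2 and Combo replicate 1 are among the libraries with a steep GC trend. The Kasumi1 call was also lost without either ATRA replicate or Combo replicate 1 (adjusted p up to 0.308). Across lines the value was 1.18 ± 0.25 with Combo (adjusted p = 0.00292, higher in 6 of 6 lines) and 0.89 ± 0.25 with ATRA (adjusted p = 0.035, higher in 5 of 6 lines). After GC correction both were kept, at 0.91 and 0.85. The ATRA call was lost without HL60, MOLM13, MV411, OCIAML3 or THP1, each alone (adjusted p up to 0.143), and the Combo call was kept without any 1 line.

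BIRC3, encoding cIAP2, had the largest change of the members. In HL60 it was at 2.27 and 3.04 CPM with DMSO, 5.72 and 3.22 with 552A, 54.1 and 62.9 with ATRA, and 148 and 169 with Combo. In MOLM13 it was at 0.588 and 1.07, 1.49 and 2.31, 2.92 and 2.94, and 9.93 and 14.7 in the same order. In OCIAML3 it was at 0.602 and 0.261, 0.347 and 0.303, 2.64 and 3.86, and 6.01 and 7.11. In these 3 lines Combo lay above ATRA, and ATRA above DMSO, with no overlap. MV411 held 0.621 and 1.42 with DMSO, 4.31 and 2.4 with 552A, 6.36 and 9.76 with ATRA, and 6.74 and 6.01 with Combo. Kasumi1 held 0.905 and 0.396, 3.07 and 2.25, 0.991 and 0.576, and 4.55 and 2.61. THP1 held 1.1 and 1.45, 1.09 and 1.98, 1.53 and 1.48, and 1.43 and 1.65. Kasumi1 thus lay above DMSO with 552A, alone or in Combo, and overlapped it with ATRA alone. OCIAML3 lay above DMSO with ATRA, alone or in Combo, and overlapped it with 552A alone. In THP1 no treatment passed the test. Outside HL60 the DMSO libraries of day 4 held 7 to 36 BIRC3 reads.

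Within lines Combo raised BIRC3 by a log2 fold change of 5.82 ± 0.35 in HL60 (adjusted p = 3.13e-07), 3.89 ± 0.43 in OCIAML3, 3.87 ± 0.44 in MOLM13, 2.68 ± 0.70 in MV411 and 2.38 ± 0.39 in Kasumi1, against 0.20 ± 0.34 in THP1 (adjusted p = 0.688). The MV411 call was lost without DMSO replicate 1 (adjusted p = 0.0791). Combo exceeded ATRA in HL60 by 1.46 ± 0.28, in MOLM13 by 2.11 ± 0.39 and in Kasumi1 by 2.14 ± 0.40. The HL60 call was lost without any 1 of the 4 libraries (adjusted p up to 0.234). The MOLM13 call was lost without either ATRA replicate or Combo replicate 2 (up to 0.086), and the Kasumi1 call without ATRA replicate 2 (0.098). Across lines the value was 3.31 ± 0.68 with Combo (adjusted p = 0.00252), 2.19 ± 0.65 with ATRA (adjusted p = 0.0487) and 1.10 ± 0.63 with 552A (adjusted p = 0.781). The Combo call was kept without any 1 line and after GC correction (3.04). The ATRA call was lost after GC correction (2.03, adjusted p = 0.0725) and without HL60, MOLM13, MV411 or OCIAML3, each alone (adjusted p up to 0.144).

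BIRC2 and XIAP changed less than BIRC3 across lines. The response of BIRC2 was not called different between lines by the F test of line and treatment. That of XIAP was, with ATRA (adjusted p = 0.00992) and with Combo (adjusted p = 0.0241). BIRC2, the neighbour and paralog of BIRC3, had a median of 55.3 CPM over the 12 DMSO libraries of day 4 (39 to 69.2), 50.2 with 552A (37.8 to 75.2), 89.4 with ATRA (56.8 to 137) and 92.8 with Combo (63.7 to 126). Across lines it rose by 0.68 ± 0.15 with ATRA (adjusted p = 0.0119) and 0.77 ± 0.15 with Combo (adjusted p = 0.00152), higher in 6 of 6 lines in both, and both calls were kept after GC correction (0.56 and 0.59). The ATRA call was lost without OCIAML3 (0.64, adjusted p = 0.0554).

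XIAP, the direct caspase inhibitor, stood at 49.7 and 60.2 CPM with DMSO in THP1, 60.2 and 69.6 with 552A, 157 and 176 with ATRA, and 134 and 171 with Combo. In OCIAML3 it was at 62.9 and 62.6, 62.3 and 68.9, 136 and 136, and 134 and 143. In both lines the ATRA and Combo libraries overlapped each other and lay above DMSO and 552A. The log2 fold change with ATRA was 1.51 ± 0.20 in THP1 (adjusted p = 0.000334) and 1.17 ± 0.21 in OCIAML3 (adjusted p = 0.00318), kept without any 1 library. In HL60 it was 0.69 ± 0.20 (adjusted p = 0.0223), a call lost after GC correction (0.28) and without ATRA replicate 2, which is 1 of the 8 libraries with a steep GC trend, or DMSO replicate 1. Across lines XIAP rose by 0.81 ± 0.16 with ATRA (adjusted p = 0.00895) and 0.79 ± 0.16 with Combo (adjusted p = 0.00273), higher in 6 of 6 lines in both, and at 0.68 and 0.52 after GC correction both calls held. The ATRA call was lost without OCIAML3 (0.74, adjusted p = 0.0526). THP1, in which BIRC3 did not separate from DMSO, was the line with the largest XIAP change.

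**Figure D4:**
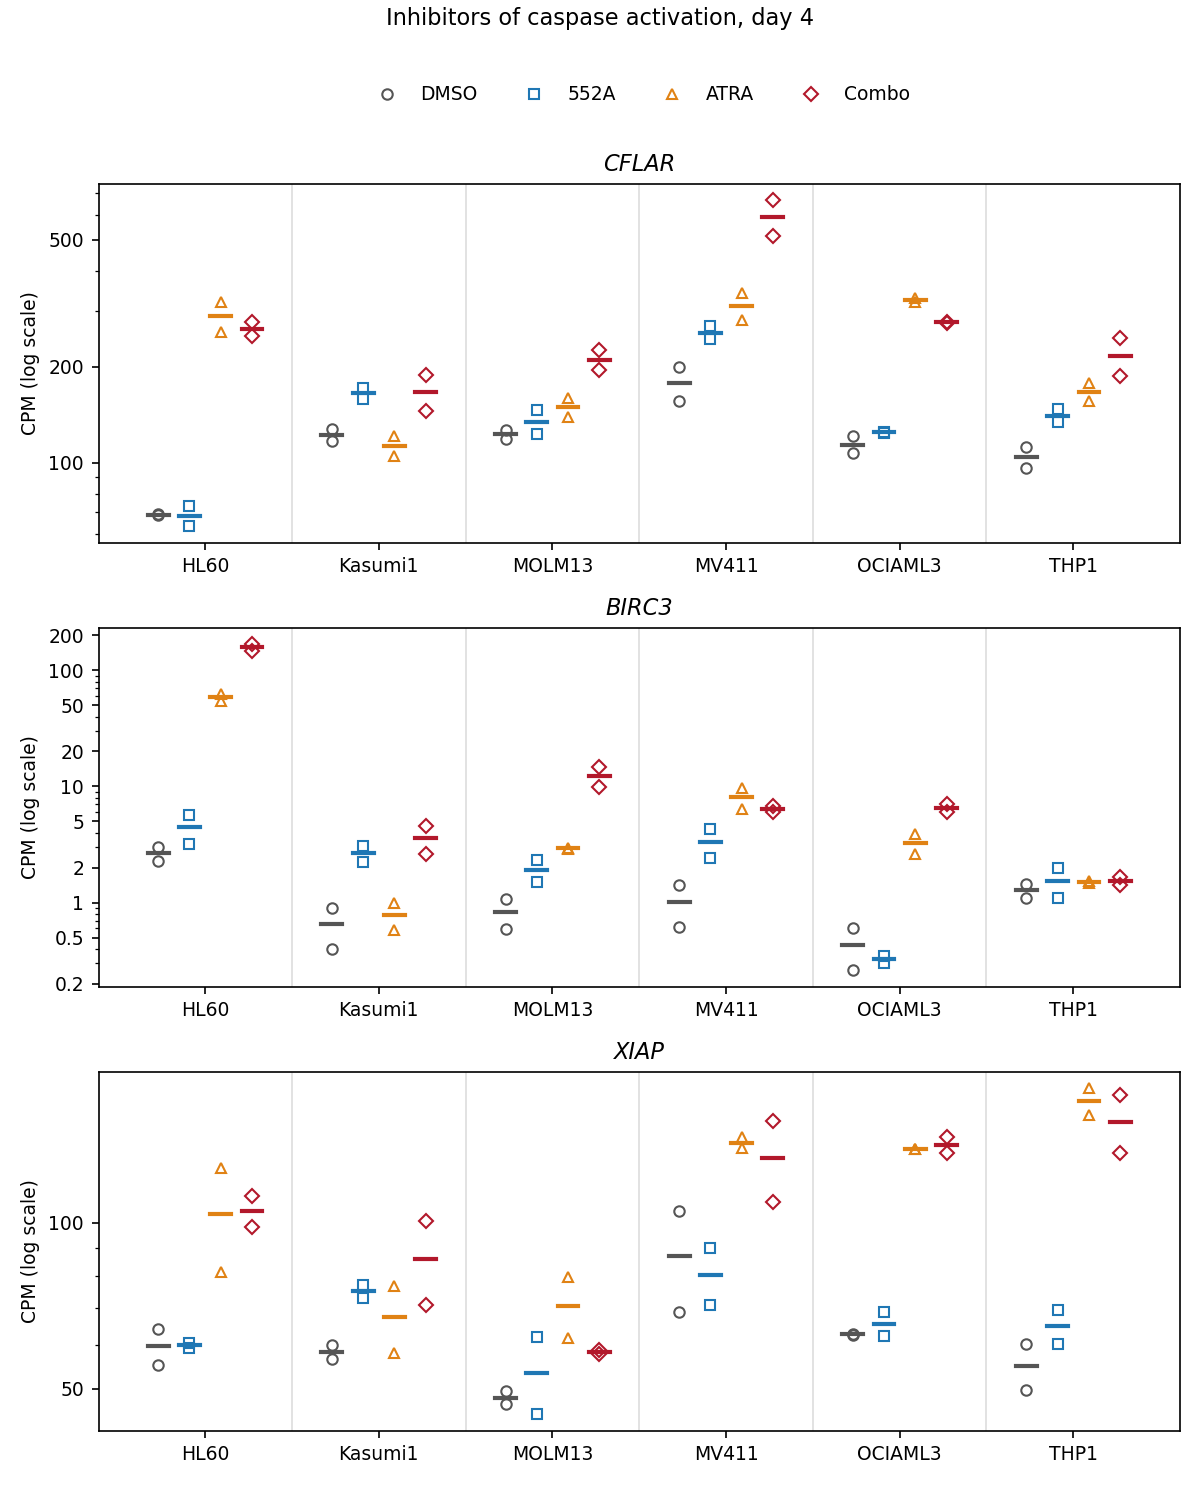
CPM on a log axis at day 4 (y axis) of CFLAR, BIRC3 and XIAP in the 6 lines (x axis). Symbols are single libraries by treatment, 2 per group, and bars their means; BIRC3 in HL60 runs from 2.27 and 3.04 with DMSO to 148 and 169 with Combo, while the THP1 libraries lie between 1.09 and 1.98.

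Combo was set against each drug alone. Across lines at day 4, Combo against ATRA changed 0 of 10 members by edgeR and by DESeq2 (2 with an unadjusted p under 0.05, TNFSF10 and TNFRSF10B), where 0.273% of genes were called. TNFRSF10B was at 0.99 ± 0.32 and TNFSF10 at 0.97 ± 0.43, higher in 6 of 6 lines in both, with adjusted p of 0.254 and 0.46. Combo against 552A raised 4 members (CFLAR 0.89, BIRC2 0.81, BIRC3 2.21 and XIAP 0.67), where 7.44% of genes were called. Of these calls BIRC2 was kept without any 1 line, and 2 of 4 were kept after GC correction, CFLAR and BIRC2. The departure of Combo from the sum of both drugs was called for 0 members and 0% of genes at either day by edgeR, with 0 members at an unadjusted p under 0.05 and 0 by DESeq2. Within lines at day 4 Combo against ATRA gave 10 calls of 60, all higher, against 8.42% of gene and line pairs, and 4 of them were in Kasumi1 (TNFSF10, TNFRSF10B, CFLAR and BIRC3). With GC correction XIAP in MV411 (-0.71, adjusted p = 0.000906) and TNFRSF10A in THP1 (-0.37, adjusted p = 0.0389) were called lower. TNFSF10 in THP1 was then called higher (0.51, adjusted p = 0.0215), and CFLAR was no longer called in Kasumi1 or MV411. Combo against 552A gave 24, 21 higher and 3 lower, against 14.7%, with 0 in Kasumi1 and 7 in HL60. The counts of single lines have no share of all genes in that line beside them. Leaving out any 1 library kept 5 of the 10 calls against ATRA and 13 of the 24 against 552A. The 3 lower calls of Combo against 552A were TNFSF10, TNFRSF10A and TNFRSF10B in THP1.

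At day 2 Combo had already raised CFLAR and the 3 IAP genes. Across lines 552A raised 1 member, TNFSF10 (1.37 ± 0.35, adjusted p = 0.0468, higher in 6 of 6 lines), where 1.96% of 24130 genes were called. That call was lost when any 1 of the 6 lines was left out (adjusted p up to 0.156) and after GC correction (1.18, adjusted p = 0.104). ATRA changed 5 members against 9.37% of genes: CASP10 (0.68), CFLAR (0.71), BIRC2 (0.70) and XIAP (0.73) rose and TNFRSF10A (-0.55) fell, and CFLAR was the 1 that kept its call after GC correction. None of these 5 calls was kept without each line in turn. That of CFLAR was lost without HL60, OCIAML3 or THP1 (adjusted p up to 0.115). Combo changed 8 against 27.2%, raising the 7 that it also raised at day 4 and lowering TNFRSF10A (-0.47 ± 0.16, adjusted p = 0.0399, lower in 6 of 6 lines). The Combo call of CASP10 was lost without MOLM13, MV411 or THP1 (adjusted p up to 0.0709), and that of TNFRSF10A without HL60, MOLM13, MV411 or OCIAML3 (up to 0.11). After GC correction the TNFRSF10A values were -0.51 with ATRA and -0.35 with Combo, neither of them called. Combo exceeded ATRA for 1 member, TNFSF10 (1.59 ± 0.35, adjusted p = 0.0337), against 0.895% of genes, a call lost without HL60, Kasumi1, MOLM13 or MV411, each alone (adjusted p up to 0.202). Combo against 552A called 0 members by edgeR, with 7 unadjusted p under 0.05 and 3 calls by DESeq2, against 3.04% of genes.

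TNFSF10 with ATRA alone differed between the days in HL60 by its values: at day 2 DMSO held 3.44 and 7.54 CPM and ATRA 4.72 and 5.67, inside the DMSO range, whereas at day 4 the ATRA libraries lay above DMSO. With 552A and Combo it had reached 28.6 and 36, and 50.8 and 48.4, at day 2. BIRC3 in HL60 was lower at day 2 in every treatment, with 0.607 and 0.281 CPM in DMSO (15 and 6 reads), 3.24 and 3.67 with ATRA and 7.62 and 6.88 with Combo. Within lines at day 2 the counts of calls over 60 pairs were 8 with 552A (background 2.8%), 19 with ATRA (11.3%) and 27 with Combo (18.7%). The 552A calls were TNFSF10 in HL60, Kasumi1, MOLM13, OCIAML3 and THP1, TNFRSF10B in Kasumi1 and THP1, and BIRC3 in Kasumi1. OCIAML3 552A replicate 2 and THP1 552A replicate 2 of day 2 are the libraries with the steepest GC trends (-1.059 and -0.914), and without the steep libraries TNFSF10 in OCIAML3 was at 0.63 (adjusted p = 0.233). No member's response was called different between day 4 and day 2 across lines, with 0 of 10 called and 0 at an unadjusted p under 0.05 for 552A, ATRA and Combo alike, where 0% of 25604 genes were called.

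Whether the lines differed in their response at day 4 was tested with edgeR's F test on the interaction of line and treatment. The test fitted single libraries, so its p-values rest on the spread between replicates, which may be technical. With 552A 2 of 10 members differed, TNFSF10 (adjusted p = 9.4e-06) and TNFRSF10B (4.66e-08), where 5.69% of genes did. With ATRA 7 differed against 31.4% of genes, and with Combo 8 against 33.6%. CASP10 and BIRC2 were the members whose response was called different between lines in none of the 3 comparisons, with adjusted p of 0.205 and 0.0869 for ATRA. FAS differed with Combo alone (adjusted p = 0.0256).

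Other genes of the pathway were taken from 10 lists of 85 genes, of which 81 were tested across lines at day 4. By edgeR 0 were called with 552A, 12 rose and 1 fell with ATRA, and 22 rose and 7 fell with Combo. Of all genes 0.393%, 7.15% and 23.3% were called in the same comparisons, in either direction. The lists hold few genes, so their counts are descriptions to be read against those shares. Of 8 other caspases 4 rose with ATRA and 6 with Combo, among them CASP6 (0.89 ± 0.20 with Combo), an executioner caspase, with a list median of 0.79 with Combo. Of 12 adaptor and necroptosis genes 3 rose and 2 fell with Combo. The risers were the kinases RIPK1 (0.95 ± 0.16) and RIPK3 (1.22 ± 0.29) and the deubiquitinase CYLD (1.33 ± 0.27). Of 6 other death and decoy receptors 2 rose with Combo, the TRAIL decoy receptors TNFRSF10C (1.37 ± 0.45) and TNFRSF10D (1.11 ± 0.34). TNFRSF1A, the TNF receptor, was at -0.31 ± 0.15 and not called.

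Of 8 tested TNF family ligands 1 rose with Combo, FASLG (4.75 ± 1.39, adjusted p = 0.027). Its CPM and read counts are not given here, so this fold change cannot be set against a level. TNFSF9 was at 0.75 and TNFSF13 at -0.58, neither called. Of 7 other IAP genes and antagonists BIRC6 rose (0.41 ± 0.11) and HTRA2, which can antagonise XIAP, fell (-0.64 ± 0.14) with Combo. The mitotic BIRC5 was at -0.60 ± 0.25 (adjusted p = 0.0905). Of 8 mitochondrial amplification genes MCL1 rose (0.73 with ATRA, 0.55 with Combo) and BCL2 fell (-2.28 ± 0.61 with ATRA, -1.86 ± 0.60 with Combo). APAF1, the apoptosome scaffold, was at 0.53 ± 0.19 with Combo (adjusted p = 0.0546).

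Of 13 NF-kappaB factors and feedback genes, 2 rose with ATRA and 4 with Combo, where 7.15% and 23.3% of all genes were called. REL was at 1.11 with ATRA and 1.42 ± 0.26 with Combo, NFKB1 at 0.62 ± 0.19 and CHUK at 0.35 ± 0.09 with Combo, all called with Combo. Of 5 interferon factors 3 rose with ATRA (among them IRF1, 1.87 ± 0.29, and STAT2, 0.84 ± 0.25) and 1 with Combo (IRF1 1.84 ± 0.29). Of 8 p53 targets 3 rose with Combo, ZMAT3 (1.34), SESN1 (1.05) and TP53INP1 (1.92), with a list median of 0.01. In lists this short, nothing is read from 3 of 8, or from the 1 of 8 TNF ligands and 2 of 8 mitochondrial genes, against 23.3% of all genes. Of 6 genes of CHOP and the integrated stress response, a route known to induce TNFRSF10B, 0 rose and 3 fell with Combo: ATF4 (-0.97 ± 0.18), TRIB3 (-3.31 ± 0.70) and CHAC1 (-2.95 ± 0.63). These are values across lines, where TNFRSF10B was not called with Combo, and any link between them was not tested.

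The gene most alike each member was sought among 11278 protein-coding genes by Pearson's r of log2 CPM over the 48 group means, which share lines and treatments, so r is given as a description. BIRC3 was most like CYLD (r = 0.80), another gene of NF-kappaB signalling. TNFRSF10A was most like OXA1L (0.92), XIAP like RIT1 (0.91), CASP8 like DNAJC10 (0.91), FAS like NCAM1 (0.90) and BIRC2 like STAM2 (0.89). TNFRSF10B was most like DCP1B (0.88), CFLAR like GSK3B (0.88), CASP10 like AGO1 (0.77) and TNFSF10 like NAAA (0.74). Among the members the highest r was 0.82, between BIRC2 and XIAP, then 0.73 between CFLAR and BIRC2 and 0.72 between CFLAR and XIAP. TNFSF10 and its receptors TNFRSF10A and TNFRSF10B were at -0.06 and 0.46, and the paralogs BIRC2 and BIRC3 at 0.59.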

How the data were processed

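Whole-number gene counts per library were deposited by the authors and used as they stood, with no normalisation. HTSeq 0.6.0, STAR 2.4.2a, Trimmomatic 0.36 and the build GRCh38 are named in the submitters' processing notes. Libraries were TruSeq Stranded Total RNA, per the labels' protocols. The annotation release is not given in the sources used here. Rows were matched to GENCODE 29 by Ensembl identifier (56994 of 60552; unmatched rows held 0.0417% of counts). Over the 48 replicate pairs, chi-square divided by its degrees of freedom was 9.9 or more, so none was counted as 1 library.

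Counts were tested in R 4.3.3 with edgeR 4.0.16 (TMM, filterByExpr, glmQLFTest). Across lines, counts of the 2 replicates were added per group, and each day's 24 sums were fitted with line as a block. Within a line the 16 libraries formed 8 groups, leaving 8 residual degrees of freedom. Response differences between lines used the 48 libraries of day 4. CPM use TMM sizes. GC correction entered gene-wise offsets for GC content and length. DESeq2 1.42.0, RLE normalisation, other filters, leaving out lines or libraries and the replicate block were alternatives. The fits were tested on simulated data. Every member was tested in every edgeR fit. Within lines DESeq2 gave an adjusted p for 538 of 540 values. The members, the lists and the rule for named genes were chosen with earlier results of these data known. The rule names all members, up to 3 genes per list by the smallest p with Combo at day 4, and the 1 gene most alike each member. Some genes that this rule names are not reported here.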

Additional observations from a re-analysis of the deposited data

Results flagged for a closer look

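The responses of several members differed between the 6 lines at day 4, by edgeR's F test on the interaction of line and treatment, adjusted over all genes. That test rests on the spread between replicate libraries, which may be technical. With 552A, TNFSF10 (adjusted p = 9.4e-06) rose in HL60, Kasumi1 and THP1 and was at 0.26 in MV411, and TNFRSF10B (4.66e-08) rose in Kasumi1 and THP1 and was at -0.19 in MOLM13.

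With ATRA, the difference between lines held for TNFSF10 (6.58e-07), which rose in HL60 by 2.25 and fell in THP1 by 0.88 on the log2 scale. It held for TNFRSF10A (0.000142), lower in MV411 and THP1, and TNFRSF10B (2.27e-09), lower in MOLM13 and MV411. It also held for CASP8 (0.00237), CFLAR (8.41e-08), BIRC3 (6.51e-06) and XIAP (0.00992), with Kasumi1 not called for any of them.

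With Combo, TNFSF10 (8.19e-09) ranged from 3.12 in HL60 to -0.48 in THP1, and TNFRSF10B (4.42e-09) from 1.74 in Kasumi1 to -0.57 in MOLM13. TNFRSF10A (5.25e-08) ranged from 0.30 in OCIAML3 to -1.68 in THP1, and FAS (0.0256) from 1.29 in Kasumi1, not called there, to -1.14 in MOLM13. The other 4 were CASP8 (0.0142), CFLAR (2.19e-05), BIRC3 (5.22e-07), at 5.82 in HL60 and 0.20 in THP1, and XIAP (0.0241).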

How the results depend on the processing

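The counts below are of members called, with the count reported above in parentheses. Across lines, DESeq2 called 1 with 552A at day 4 (0) and 3 for Combo against 552A at day 2 (0). With GC and length offsets the calls were 3 with ATRA at day 4 (5), 2 for Combo against 552A at day 4 (4), 0 with 552A at day 2 (1), 1 with ATRA at day 2 (5) and 3 for Combo against 552A at day 2 (0). Without the 8 libraries of steepest GC trend they were 1 for Combo against 552A at day 4 (4), 0 with 552A at day 2 (1) and 1 for Combo against 552A at day 2 (0). Within lines, departures of Combo from the sum of both drugs at day 4 numbered 2 by DESeq2, 3 without a filter and 3 with GC offsets (1). With GC offsets XIAP in MV411 turned there from 0.01 to -0.70 (adjusted p = 0.035), and the cause was not tested. It was the 1 value whose direction turned with a call.

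Leaving out a line or a replicate number gave 0 to 6 calls with ATRA at day 4 (5), 1 to 4 for Combo against 552A (4), and at day 2 0 calls with 552A in every case (1), 0 to 7 with ATRA (5), 0 to 1 for Combo against ATRA (1) and 0 to 3 for Combo against 552A (0). Combo against DMSO kept 5 to 6 at day 4 (7) and 6 to 8 at day 2 (8). Of all genes, these omissions called 405 to 2295 with ATRA at day 4. They called 369 to 2070 for Combo against 552A and 3290 to 4756 with Combo at that day. At day 2 they called 91 to 605 with 552A, 171 to 2927 with ATRA and 2529 to 6204 with Combo. For Combo against ATRA they called 54 to 257, and against 552A 93 to 1218. Within lines, 552A at day 2 had 7 to 13 calls without 1 library (8), the 13 without THP1 552A replicate 1. Totals of all genes are not given here for the alternatives within lines.

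The labels do not say what a replicate number shares. Deviations of same-numbered treated and DMSO libraries correlated from -0.85 to 0.93, above 0.1 in 25 of 36 cases, so they moved together in many lines but not in all, and the numbers were not taken to pair the libraries. With the replicate block the calls across lines were 1 with 552A (0), 1 for Combo against ATRA (0) and 7 for Combo against 552A (4) at day 4, and 3 (1), 2 (1) and 7 (0) at day 2.

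Of all genes at day 4, DESeq2 called 319 with 552A (95), 2980 with ATRA (1731), 318 for Combo against ATRA (66) and 3103 for Combo against 552A (1800). A stricter filter called 52 with 552A and 37 for Combo against ATRA, leaving out the steep libraries called 1020 for Combo against 552A, and the replicate block called 820, 5632, 9373 (5643 with Combo), 1134 and 5827. At day 2, DESeq2 called 1433 with 552A (472), 3735 with ATRA (2261), 493 for Combo against ATRA (216) and 1698 for Combo against 552A (733). GC offsets called 282 with 552A, 1388 with ATRA and 1155 for Combo against 552A. The stricter filter called 137 and 475 for Combo against ATRA and against 552A, and leaving out the steep libraries called 182 with 552A. The replicate block called 3152 with 552A, 5763 with ATRA, 1380 for Combo against ATRA and 4349 for Combo against 552A. Low counts limit BIRC3 outside HL60 and FAS in MV411, THP1 and Kasumi1.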
